A study of Mus musculus with 2 samples.

Results

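The 8 transcription factor genes described here, which are linked to stem-like or early lymphocyte states, were followed in natural killer (NK) cells of the mouse spleen. They are Tcf7, Lef1, Bach2, Tox, Myb, Id3, Bcl11b and Batf3, and they were taken by symbol from the 32285 genes listed in the deposited files, where all 8 were found. Spleen NK cells isolated by flow cytometry had been profiled by droplet sequencing of transcript 3' ends, in 1 library from normal mice (control) and 1 from mice under dietary restriction (DR). The strain, age and number of mice, the length of the restriction and the sorting gate are not given in the sources used here. Each group is a single library and cells are not replicates, so nothing was tested and every comparison is between these 2 libraries only.

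NK cells mature in the spleen through stages that are told apart by the surface proteins CD27 and CD11b, the latter encoded by Itgam. CD27 marks the early stages and CD11b the late ones, and cells with both lie between them. TCF-1 (the product of Tcf7) and LEF-1 (the product of Lef1) are related DNA-binding factors that work with beta-catenin or with repressors of the TLE family, and TCF-1 is known for its role in the self-renewing, memory-like states of T cells and in early innate lymphoid cells. Type 1 innate lymphoid cells (ILC1) are relatives of NK cells that share many of their receptors.

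Each kept cell was placed in a class by clustering on genes other than these 8. NK-like cells numbered 4592 (control) and 4451 (DR), with medians of 7033.5 and 5416 unique molecular identifiers (UMIs, each standing for 1 captured transcript). ILC1-like cells numbered 309 and 418, and B-like cells 118 and 435. T-like cells numbered 3 (control) and 302 (DR), so T cell values come from the DR library alone. NK-like cells were split by their UMIs of Cd27 and Itgam. Cells with Cd27 only numbered 637 and 913, cells with both genes (double-positive) 1015 and 947, cells with Itgam only 2230 and 1569, and cells with neither 710 and 1022. A missing UMI does not show a missing transcript, so the stage of a cell depends on its depth, and the medians of Cd27-only cells (8900 and 6972 UMIs) lay above those of Itgam-only cells (6668 and 5004). The largest NK-like cluster of the control library, led by Cx3cr1, held 1937 control and 311 DR cells, whereas the largest of the DR library, led by Gm10522, held 527 and 2063.

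Levels are counts per 1000000 UMIs of the same cells (CPM). Intervals are exact 95% intervals (Poisson for levels, conditional binomial for ratios, Clopper-Pearson for shares of cells) that cover counting error only. Where no cell had a UMI, the upper limit given is 3 cells of the total. The size rule calls a gene if it is at least 25% higher, or at least 20% lower, and the interval of its ratio leaves out 1. It covers genes whose mean over the compared groups reaches 20 CPM. Levels of different genes are not compared, since capture of 3' ends differs between genes.

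The promoters of 3 genes are shown. Of these, Id3 and Batf3 had the steepest slope with NK stage. The third, Lef1, was lower in Cd27-only than in Itgam-only cells, but was called by the size rule in the DR library only. Without the Batf3-led cluster (below) Lef1 was called in neither library. Sequences are from RefSeq on GRCm38.p6, 250 bases before to 50 bases after an annotated start, 5′ to 3′ on the strand of the gene. The Id3 window is chr4:136143572-136143871, the Batf3 window chr1:191098164-191098463 and the Lef1 window chr3:131110047-131110346, all on the plus strand. Capitals mark E-box letters (CANNTG), a loose pattern that includes the sites of E proteins but is not limited to them.
Id3: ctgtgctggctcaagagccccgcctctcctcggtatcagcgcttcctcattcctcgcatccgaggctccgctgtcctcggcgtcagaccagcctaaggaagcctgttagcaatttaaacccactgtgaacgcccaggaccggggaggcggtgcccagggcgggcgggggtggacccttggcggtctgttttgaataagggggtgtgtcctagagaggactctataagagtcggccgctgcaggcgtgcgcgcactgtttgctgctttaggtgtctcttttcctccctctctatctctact
Batf3: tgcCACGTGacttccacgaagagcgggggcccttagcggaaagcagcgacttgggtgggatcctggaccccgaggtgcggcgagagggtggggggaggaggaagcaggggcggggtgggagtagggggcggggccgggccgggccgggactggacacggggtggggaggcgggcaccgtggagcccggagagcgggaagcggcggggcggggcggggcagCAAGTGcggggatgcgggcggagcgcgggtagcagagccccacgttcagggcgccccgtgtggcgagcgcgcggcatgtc
Lef1: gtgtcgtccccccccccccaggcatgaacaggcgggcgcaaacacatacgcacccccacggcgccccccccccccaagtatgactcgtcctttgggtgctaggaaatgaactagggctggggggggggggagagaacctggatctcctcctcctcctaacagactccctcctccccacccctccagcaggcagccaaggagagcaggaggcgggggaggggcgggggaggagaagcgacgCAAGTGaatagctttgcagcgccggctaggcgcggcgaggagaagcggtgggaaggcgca
Promoters of 7 of the 8 genes were matched, and Tox was not among them. Motif letters were searched on both strands. The E-box was found in 4 of the 7 windows, those of Tcf7, Lef1, Myb and Batf3, with 2 matches in Batf3 and none in Id3. It is held by 72.1% of all 27025 promoter windows of the same length. The TCF and LEF letters CTTTGA were found in the Bach2 and Bcl11b windows and are held by 16.2% of all windows. None of the 7 windows held the AP-1 letters TGANTCA (7.93% of all windows) or the RUNX letters TGTGGT (16.9%). The motifs do not overlap in these windows. A match describes the letters only. Each window follows 1 listed start of its gene, which need not be the outer end of the gene span given below. The Bach2 window, chr4:32417185-32417484, lies well inside that span.

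Tcf7 was lower at each step from Cd27-only to double-positive to Itgam-only NK-like cells. The gene is ENSMUSG00000000782 (GRCm38, chromosome 11, 52252371 to 52283014, minus strand). Its level was 164 CPM (154 to 175) in control Cd27-only cells, 67.1 CPM (61.9 to 72.7) in double-positive cells and 20.97 CPM (18.8 to 23.4) in Itgam-only cells. In the DR library it was 140 CPM (131 to 150), 90.6 CPM (83.5 to 98.1) and 33.3 CPM (29.5 to 37.4). The order of the 3 stages was the same in both libraries and their intervals did not overlap. Cd27-only over Itgam-only cells gave a log2 ratio of 2.97 (2.79 to 3.15) in the control and 2.08 (1.88 to 2.28) in the DR library. Cd27-only cells made up 13.9% of control NK-like cells and held 44.1% of their Tcf7 UMIs, and in the DR library 20.5% of the cells held 44.4%. The level also followed the number of Itgam UMIs in a cell. In cells thinned to 3000 UMIs it was 73.8 CPM in control cells with 0 Itgam UMIs, 30.4 CPM with 1, 24.4 CPM with 2 and 6.97 CPM with 3 or more (6 Tcf7 UMIs in 287 cells). The same steps in the DR library gave 75.1, 45.5, 38.7 and 31.7 CPM. The intervals with 3 or more were 2.56 to 15.2 CPM in the control and 17.4 to 53.3 CPM in the DR library (14 UMIs in 147 cells). By these values the decline with Itgam was shallower in the DR library. Its intervals with 1, 2 and 3 or more overlapped, however, as did those with 1 and 2 in the control.

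Among NK-like cells, most UMIs of Batf3 and Id3 came from Cd27-only cells. BATF3 is a basic leucine zipper factor best known for conventional dendritic cells that cross-present antigen, and ID3 is an inhibitor that binds E proteins and keeps them from DNA. Batf3 (ENSMUSG00000026630, chromosome 1, 191097847 to 191108945, plus strand) stood at 53.0 CPM (47.3 to 59.2) in control Cd27-only cells and 51.3 CPM (46.0 to 57.0) in DR Cd27-only cells. In Itgam-only cells it was 0.774 CPM (12 UMIs) in the control and 0.121 CPM (1 UMI) in the DR library. The log2 ratio was 6.10 (5.27 to 7.06) for the control library. For the DR library it rests on that 1 UMI and was 8.73 (6.25 to 14.04). Id3 (ENSMUSG00000007872, chromosome 4, 136143497 to 136145755, plus strand) stood at 32.5 CPM and 25.3 CPM in Cd27-only cells of the control and DR libraries against 0.710 CPM (11 UMIs) and 0.964 CPM (8 UMIs) in Itgam-only cells. Its log2 ratios were 5.52 (4.64 to 6.54) and 4.72 (3.71 to 5.95), with a mean under 20 CPM. Cd27-only cells held 83.5% of the Batf3 UMIs and 74.4% of the Id3 UMIs of control NK-like cells, and 74.1% and 69.1% in the DR library. Before thinning, a Batf3 UMI was found in only 11.3% of control and 11.8% of DR Cd27-only cells, and an Id3 UMI in 11.1% and 9.42%. Most NK-like UMIs of both genes lay in the cluster led by Batf3 (below), which held 19.8% and 18.9% of Cd27-only cells.

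Tox, Myb and Bcl11b were also higher in Cd27-only than in Itgam-only cells, with smaller ratios, of which those of Myb and Bcl11b had means under 20 CPM. TOX is an HMG-box factor needed for NK and T cell development. Tox (ENSMUSG00000041272, chromosome 4, 6686353 to 6991557, minus strand) was at 89.5 CPM (82.0 to 97.5) in control Cd27-only cells, 51.5 CPM (47.0 to 56.4) in double-positive cells and 37.9 CPM (34.9 to 41.1) in Itgam-only cells. In the DR library the stages stood at 59.6 CPM (53.9 to 65.8), 32.1 CPM (27.9 to 36.7) and 32.7 CPM (28.9 to 36.8), so the last 2 did not differ beyond counting error. The Tox log2 ratio of Cd27-only over Itgam-only cells was 1.24 (1.07 to 1.41) and 0.87 (0.64 to 1.10). Myb, which encodes a factor of progenitor cells (ENSMUSG00000019982, chromosome 10, 21124935 to 21160984, minus strand), had another shape. It was at 32.1 CPM and 24.2 CPM in Cd27-only cells and at 27.1 CPM and 25.2 CPM in double-positive cells of the control and DR libraries, with overlapping intervals. It was at only 6.58 CPM and 7.47 CPM in Itgam-only cells, and its log2 ratios were 2.29 (1.93 to 2.65) and 1.69 (1.26 to 2.14). Over the same Cd27 steps Myb was at 9.88, 20.9, 53.1 and 41.7 CPM in the control and 9.37, 19.0, 9.48 and 6.54 CPM in the DR library. The last 2 DR values rest on 6 UMIs and 1 UMI. Bcl11b, which encodes a zinc finger factor of T cell commitment (ENSMUSG00000048251, chromosome 12, 107910403 to 108003602, minus strand), was at 16.4 CPM and 14.9 CPM in Cd27-only cells and at 6.84 CPM and 7.11 CPM in Itgam-only cells. Over the Cd27 steps Bcl11b was at 7.06, 9.70, 23.6 and 41.7 CPM in the control and 9.26, 13.2, 7.90 and 19.6 CPM in the DR library. The last 2 steps rest on 8 and 4 control UMIs and on 5 and 3 DR UMIs.

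Lef1 and Bach2 did not follow the early stage. Lef1 (ENSMUSG00000027985, chromosome 3, 131110471 to 131224356, plus strand) was at 46.4 CPM (41.0 to 52.2) in control Cd27-only cells and 55.2 CPM (51.5 to 59.0) in Itgam-only cells, a log2 ratio of -0.25 (-0.45 to -0.05). In the DR library it was at 52.6 CPM (47.3 to 58.4) and 73.6 CPM (67.9 to 79.7), a log2 ratio of -0.48 (-0.68 to -0.29). BACH2 is a repressor that competes with AP-1 factors and holds lymphocytes back from effector fates. Bach2 (ENSMUSG00000040270, chromosome 4, 32238804 to 32586108, plus strand) was at 32.3 CPM (27.9 to 37.2) in control Cd27-only and 44.0 CPM (40.8 to 47.4) in control Itgam-only cells. In the DR library the levels were 36.2 CPM (31.8 to 41.1) and 31.7 CPM (27.98 to 35.8). The Bach2 log2 ratio was -0.45 (-0.68 to -0.21) in the control and 0.19 (-0.06 to 0.45) in the DR library, so the direction was not shared. Tcf7, Tox, Batf3, Id3, Myb and Bcl11b thus had higher levels in Cd27-only than in Itgam-only cells of both libraries, and Lef1 and Bach2 did not. This describes levels alone, without a share over all genes, and the means of Id3, Myb and Bcl11b were under 20 CPM.

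By the size rule, 3 genes were higher in Cd27-only than in Itgam-only cells in both libraries (Tcf7, Tox and Batf3). In the background, 10.3% of 5838 genes were called higher in control cells and 6.68% of 5807 in DR cells. 1 gene was lower in each, Bach2 in the control and Lef1 in the DR library, beside backgrounds of 20.2% and 17.1%, which made 30.4% and 23.8% in either direction. Batf3 met the 20 CPM minimum only through Cd27-only cells and therefore had to differ. The median log2 ratio of all genes described was -0.10 in the control and -0.11 in the DR library. Without the cluster led by Batf3 (below), the Tcf7 ratios were 2.58 and 1.78 and 1 gene stayed called in the DR library. The Tox ratio in the DR library then dropped to 0.24 and lost its call, and the Lef1 ratios moved to 0.09 and -0.17 with no call. When stages were called after thinning every cell to 3000 UMIs, 2 genes were called in the DR library, and the ratios there were 1.48 for Tcf7, 0.42 for Tox and -0.30 for Lef1.

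**Figure D1:**
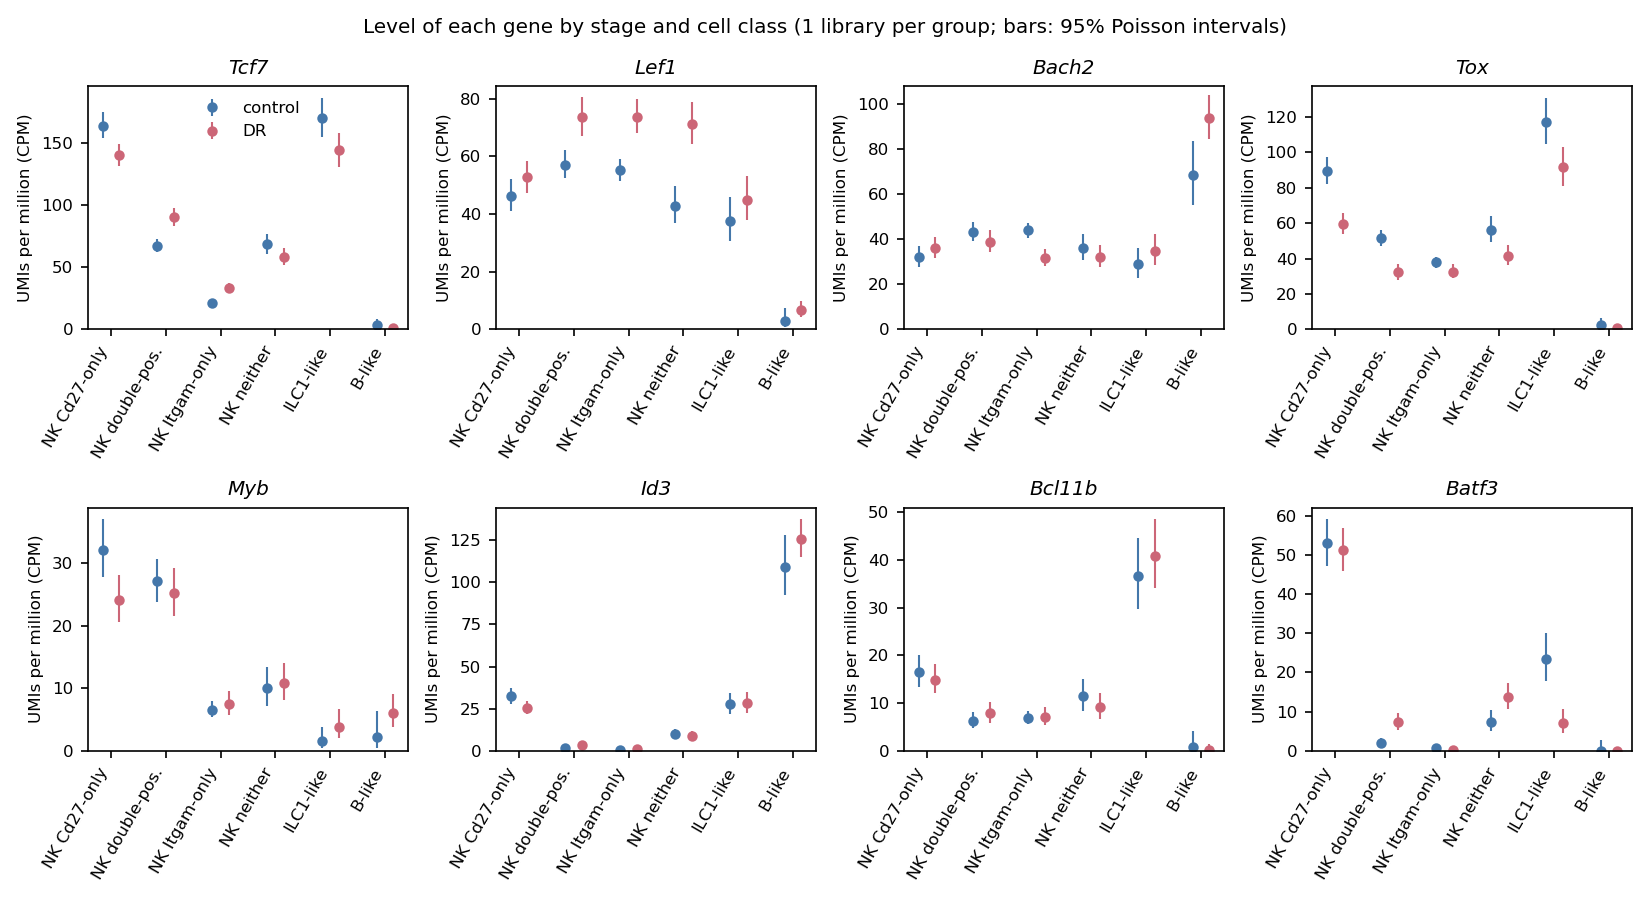
Level of each of the 8 genes (vertical axes, CPM, linear from 0) in the 4 stages of NK-like cells, ILC1-like and B-like cells of the control (blue) and DR (red) libraries. Points are 1 library each and bars are 95% Poisson intervals. Tcf7 declines from 164 CPM in control Cd27-only cells to 20.97 CPM in Itgam-only cells, while Lef1 does not decline.

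Levels of the 8 genes differed between clusters of NK-like cells. A cluster led by Batf3, although that gene was not used to form it, held 154 control and 222 DR cells, of which 81.8% and 77.9% were Cd27-only. It was picked for its Batf3 level, and a second cluster was picked for holding the most Myb UMIs, so their values are a description. The Batf3-led cluster made up 3.35% of the NK-like cells in the control and 4.99% in the DR library. It held 85.9% of the Batf3 UMIs and 72.5% of the Id3 UMIs of control NK-like cells, and 90.9% and 77.2% in the DR library. Tcf7 was at 285 CPM (262 to 311) there in the control and 214 CPM (195 to 234) in the DR library, its highest levels among the NK-like clusters drawn in the plot of levels by cluster. Tox stood at 136 and 123 CPM and Bcl11b at 30.5 and 28.1 CPM. Lef1, in contrast, was at 10.9 CPM (20 UMIs) and 14.3 CPM (31 UMIs), its lowest among those clusters. With another random seed of the clustering, a cluster led by Batf3 held 181 control and 232 DR cells with 87.2% and 91.2% of the Batf3 UMIs, Tcf7 at 276 and 219 CPM and Lef1 at 15.9 and 14.5 CPM.

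The cluster with the most Myb UMIs had Myb as its leading gene, although Myb was not used to form it, and held 940 control and 1456 DR cells, or 20.5% and 32.7% of NK-like cells. It held 62.0% of the Myb UMIs of control NK-like cells and 66.0% of those of DR NK-like cells. With another random seed of the clustering, the matching cluster was led by Gm15518, with Myb among its leading genes. Myb stood at 38.4 and 27.9 CPM in the Myb-led cluster. It was not confined to that cluster, with 24.0 CPM (20.1 to 28.4) and 34.4 CPM (25.8 to 45.0) in a cluster led by Gm19590, 41.8 CPM (28.6 to 59.0) in DR cells of a cluster led by Ccl1, and 11.4 and 9.67 CPM in the Batf3-led cluster. In the Myb-led cluster Tcf7 was at 73.9 and 105 CPM and Lef1 at 60.4 and 72.4 CPM. Batf3 was at 0.852 CPM (8 UMIs) and 1.32 CPM (14 UMIs), and Id3 at 1.17 CPM (11 UMIs) and 0.8502 CPM (9 UMIs). Cd27 was at 176 and 179 CPM in the Batf3-led and 134 and 189 CPM in the Myb-led cluster. Itgam was at 7.63 and 6.45 CPM in the Batf3-led and 169 and 134 CPM in the Myb-led cluster.

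Set against each other, the Batf3-led cluster had 5.54-fold less Lef1 than the Myb-led cluster in the control library and 5.07-fold less in the DR library. It had 3.86-fold and 2.04-fold more Tcf7, 2.82-fold and 3.79-fold more Tox, and 3.36-fold and 2.88-fold less Myb. Of the 7 genes at 20 CPM or more in the control and 6 in the DR library, 4 were higher in the Batf3-led cluster in each (Batf3, Id3, Tcf7 and Tox), beside backgrounds of 15.8% and 12.0% of all genes called higher. Lef1 was lower in both libraries and Myb in the control library, its mean in the DR library being under 20 CPM, beside backgrounds of 12.9% and 14.9% lower and 28.8% and 26.9% in either direction. Batf3 and Id3 met the minimum only through the Batf3-led cluster, and Lef1 and Myb only through the Myb-led cluster.

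The Batf3-led cluster also carried transcripts of T cell receptor complex chains. Cd3d was at 346 and 312 CPM and Cd3g at 233 and 217 CPM, against 19.9 and 21.4 CPM for Cd3d in the Myb-led cluster. Cd3e, which defines T cells, was at 0.545 CPM in the control cluster and at 0 in the DR cluster, against 606 CPM in T-like cells. Of 9 NK markers, 7 met the naming limits in the Batf3-led cluster, against 9 in the Myb-led cluster. The NK genes Ncr1 (1185 and 1064 CPM) and Eomes (298 and 260 CPM) were present in it. The NK marker Klrb1c was at 740 and 816 CPM, against 948 and 1060 CPM in the Myb-led cluster. The ILC1 markers Tmem176a (4.36 and 2.76 CPM), Tmem176b (6.54 and 3.68 CPM) and Cxcr6 (0.545 and 0 CPM) were near 0. The interleukin-7 receptor gene Il7r, also on the ILC1 list, was present (180 and 200 CPM), as was the cytokine receptor gene Kit (233 and 164 CPM). Levels of the other NK and ILC1 markers in this cluster are not given here, so those named do not settle its type. Its median depth was 11313 and 9272 UMIs per cell, above that of all NK-like cells, and its share of merged cells that the doublet score missed was not tested.

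**Figure D2:**
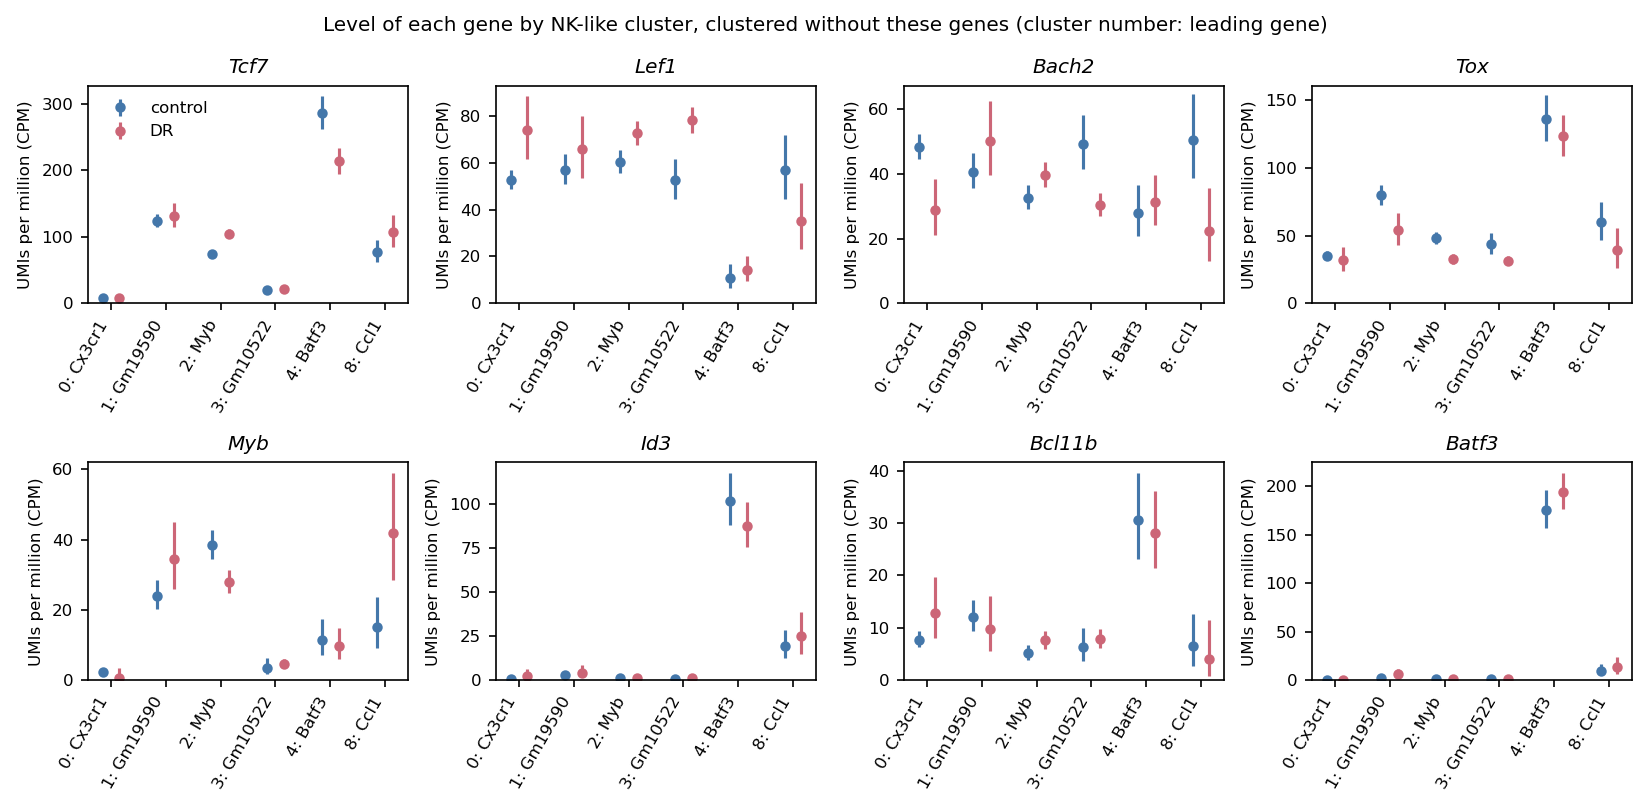
Level of each gene (vertical axes, CPM, linear from 0) in the 6 NK-like clusters with at least 50 cells in both libraries, with control in blue, DR in red and 95% Poisson intervals as bars. Cluster numbers stand beside the gene with the largest fold. Batf3 and Id3 peak in cluster 4, where Lef1 is at 10.9 and 14.3 CPM, and Myb is at 38.4 and 27.9 CPM in cluster 2.

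ILC1-like cells resembled early NK cells in some of the 8 genes and not in others. In ILC1-like cells Tcf7 was at 170 CPM (155 to 187) for the control and 144 CPM (131 to 158) for the DR library, against 63.2 and 79.1 CPM in all NK-like cells. The log2 ratios of ILC1-like over NK-like cells were 1.43 (1.28 to 1.58) and 0.87 (0.72 to 1.01). Tox was at 117 and 91.5 CPM in ILC1-like against 52.5 and 41.0 CPM in NK-like cells. Bcl11b was at 36.6 CPM (29.6 to 44.6) and 40.8 CPM (34.0 to 48.5) against 8.85 and 9.63 CPM, with log2 ratios of 2.05 (1.70 to 2.38) and 2.08 (1.76 to 2.40). Tcf7, Tox and Bcl11b were called higher in both libraries, beside backgrounds of 16.1% and 15.1% of genes called higher. Bcl11b met the minimum only through ILC1-like cells. Beside Cd27-only NK-like cells alone, the Tcf7 intervals overlapped (164 and 140 CPM in Cd27-only cells). Tox and Bcl11b were lower in Cd27-only than in ILC1-like cells, at 89.5 and 59.6 CPM and at 16.4 and 14.9 CPM.

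Myb was nearly absent from ILC1-like cells, at 1.51 CPM (4 UMIs) in the control and 3.85 CPM (12 UMIs) in the DR library, against 16.7 and 16.7 CPM in NK-like cells. Lef1 was lower in ILC1-like cells in both libraries, at 37.7 and 45.0 CPM against 52.7 and 67.9 CPM, with log2 ratios of -0.48 (-0.79 to -0.19) and -0.59 (-0.85 to -0.35). Bach2 was called lower in the control library alone, at 29.0 against 40.9 CPM, whereas in the DR library it was at 35.0 against 34.8 CPM. The backgrounds of genes called lower were 12.3% and 10.8%, and of either direction 28.3% and 25.9%. Id3 was at 27.5 and 28.3 CPM in ILC1-like cells against 7.42 and 9.18 CPM in NK-like cells. Batf3 pointed in opposite directions, with ILC1-like cells at 23.4 CPM (62 UMIs) in the control and 7.07 CPM (22 UMIs) in the DR library against 10.8 and 17.3 CPM in NK-like cells.

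T-like cells of the DR library had the highest levels of Lef1, Tcf7 and Bcl11b among the named classes with at least 50 cells. Lef1 was at 535 CPM (508 to 564) against 67.9 CPM in DR NK-like cells, a log2 ratio of 2.98 (2.88 to 3.08). Tcf7 was at 339 CPM (318 to 362), a log2 ratio of 2.102 (1.99 to 2.22), and Bcl11b at 356 CPM (334 to 380), a log2 ratio of 5.21 (5.01 to 5.41). Id3 was at 87.7 CPM (76.8 to 99.7), with a log2 ratio of 3.26 (2.99 to 3.52). Bach2 was at 70.7 CPM (60.9 to 81.6), with a log2 ratio of 1.02 (0.79 to 1.251), and Tox at 59.3 CPM (50.4 to 69.4), with a log2 ratio of 0.53 (0.28 to 0.78). These 6 genes were all called higher, beside a background of 12.3% of 5617 genes higher, 45.4% lower and 57.7% in either direction. The median log2 ratio of all genes was -0.29 in this comparison. Id3 and Bcl11b met the minimum only through T-like cells. Batf3 went the other way, with 1 UMI in 302 T-like cells (0.378 CPM) and a log2 ratio of -5.52 (-10.82 to -3.03).

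B-like cells, which should lack Tcf7, Lef1, Bcl11b and Batf3, served as the reference for free RNA in the droplets. After thinning, Tcf7 had a UMI in 0 of 115 control B-like cells, which allows a share of up to 2.61%, and in 0.475% of 421 DR B-like cells. In NK-like cells the shares were 11.6% of 4341 control and 15.03% of 4252 DR cells (23.3% and 26.7% before thinning). In Itgam-only cells they were 4.52% (3.68 to 5.49) and 8.33% (6.98 to 9.85), also above the DR B-like share. Lef1 had a UMI in 0 of 115 and 1.90% of 421 B-like cells, against 14.0% and 18.3% of NK-like cells. B-like cells had Bach2 at 68.4 and 93.9 CPM and Id3 at 109 and 126 CPM, so they are no reference for these genes. The medians before thinning were 8758.5 and 6770 UMIs in B-like cells.

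Defining T cell and ILC1 markers were low in NK-like cells, while some B cell transcripts were present. Of 10 T cell markers, 3 reached 20 CPM in each library, and their sum was 333 CPM (control) and 331 CPM (DR) against 5859 CPM in T-like cells. Most of it was the T cell receptor constant gene Trbc2, at 266 and 227 CPM. NK-like cells had Cd3e at 0.172 CPM (control) and 0.896 CPM (DR), and Cd8b1 at 0 and 0.597 CPM. The sum of the 8 ILC1 markers was 50.5 and 84.2 CPM in NK-like against 2215 and 2218 CPM in ILC1-like cells. The 9 B cell markers summed to 125 CPM (control) and 240 CPM (DR) in NK-like against 17910 and 34868 CPM in B-like cells, with none at 0 in NK-like cells. Most of it came from the immunoglobulin genes Ighm, at 96.8 and 143 CPM, and Igkc, at 15.6 and 76.5 CPM. Cd79a was at 2.70 and 5.19 CPM. The part of this B cell RNA, or of T cell RNA, in the values of the 8 genes was not tested. T-like cells, which had more Lef1 and Tcf7 than NK-like cells, numbered 3 in the control and 302 in the DR library.

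Comparing the DR with the control library in all NK-like cells, Lef1 was higher and Tox lower, and Tcf7 was higher by a margin at the size limit. Lef1 stood at 52.7 CPM (50.3 to 55.2) for the control and 67.9 CPM (64.8 to 71.1) for the DR library, a log2 ratio of 0.37 (0.27 to 0.46). Tox was at 52.5 CPM (50.1 to 54.9) and 41.0 CPM (38.6 to 43.5), a log2 ratio of -0.36 (-0.47 to -0.25). With Tcf7 these were the 3 genes called, beside backgrounds of 3.13% of 5819 genes higher, 7.73% lower and 10.9% in either direction. Tox was at -0.29 and lost its call with median-of-ratios scaling, which sets the median log2 ratio of all genes (-0.06) to 0.

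Tcf7, at 63.2 CPM (60.6 to 65.9) and 79.1 CPM (75.7 to 82.5), had a log2 ratio of 0.32 (0.24 to 0.41). It lost its call under several other settings, among them another random seed of the clustering (0.31), doublet calls kept (0.321) and thinning to 3000 UMIs (0.29), and was at 0.39 with median-of-ratios scaling. With the DR stages weighted by the control library's mix of stages it was 0.14, and with the 6 NK-like clusters of at least 50 cells per library weighted equally it was -0.00248. Lef1 stood at 0.40 and 0.23 under these weightings, the latter without a call, and Tox at -0.46 and -0.37. Bach2 was at 40.9 and 34.8 CPM, a log2 ratio of -0.24 (-0.36 to -0.12). Myb was at 16.7 and 16.7 CPM, with an interval of the log2 ratio from -0.19 to 0.18. Id3 at 7.42 and 9.18 CPM, Bcl11b at 8.85 and 9.63 CPM and Batf3 at 10.8 and 17.3 CPM were under the 20 CPM minimum. The Batf3 log2 ratio was 0.68 (0.48 to 0.88), and it was 0.08 without the Batf3-led cluster.

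Within stages, Tcf7 differed in direction. The log2 ratio of DR over control was -0.23 (-0.36 to -0.10) in Cd27-only cells, 0.43 (0.27 to 0.60) in double-positive cells and 0.67 (0.43 to 0.90) in Itgam-only cells. In cells with neither gene it was -0.23, with an interval that held 0 (-0.47 to 0.005), and in ILC1-like cells it was -0.24 (-0.43 to -0.05). Tcf7 was called higher in double-positive and Itgam-only cells. When stages were called after thinning, the values in Cd27-only, double-positive and Itgam-only cells were -0.11, 0.31 and 0.81, so the double-positive value lay under the limit. By cluster, Tcf7 was at 7.62 (control) and 7.96 CPM (DR) in the Cx3cr1-led and 19.7 and 21.9 CPM in the Gm10522-led cluster. It was at 124 and 132 CPM in the Gm19590-led, 73.9 and 105 CPM in the Myb-led and 77.5 and 107 CPM in the Ccl1-led cluster. In the Batf3-led cluster it was at 285 and 214 CPM. The part of the mix of clusters in the ratios within stages was not tested. Median UMIs per cell were lower in DR than in control cells at every stage, and Igkc, a B cell transcript, was at 176 CPM in its Itgam-only cells against 17.1 CPM in the control ones. B-like cells themselves held Tcf7 at 3.64 and 1.05 CPM.

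Lef1 was higher in the DR library at 3 stages, with log2 ratios of 0.37 (0.18 to 0.55) in double-positive, 0.42 (0.26 to 0.57) in Itgam-only and 0.73 (0.47 to 0.997) in cells with neither gene, and its ratio was 0.18 (-0.05 to 0.42) in Cd27-only cells. Tox was lower at -0.59 (-0.78 to -0.40) in Cd27-only, -0.68 (-0.92 to -0.45) in double-positive and -0.44 (-0.71 to -0.17) in cells with neither gene, and also in ILC1-like cells at -0.36 (-0.59 to -0.12). In Itgam-only cells the Tox ratio was -0.21 (-0.43 to -0.00). Bach2 was lower in Itgam-only cells alone by the size rule, at 44.0 and 31.7 CPM with a log2 ratio of -0.47 (-0.68 to -0.27). Id3 and Myb were called lower in Cd27-only cells, at -0.36 (-0.66 to -0.05) and -0.41 (-0.72 to -0.10). The backgrounds called lower were 9.35% in Cd27-only, 9.65% in double-positive, 8.25% in Itgam-only and 9.35% in cells with neither gene, and 9.12% in ILC1-like cells. Those called higher were 4.13%, 4.93%, 4.45% and 4.46% for the same stages and 4.64% in ILC1-like cells. In either direction they were 13.5%, 14.6%, 12.7%, 13.8% and 13.8%. Differences between stages in these ratios were not tested.

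**Figure D3:**
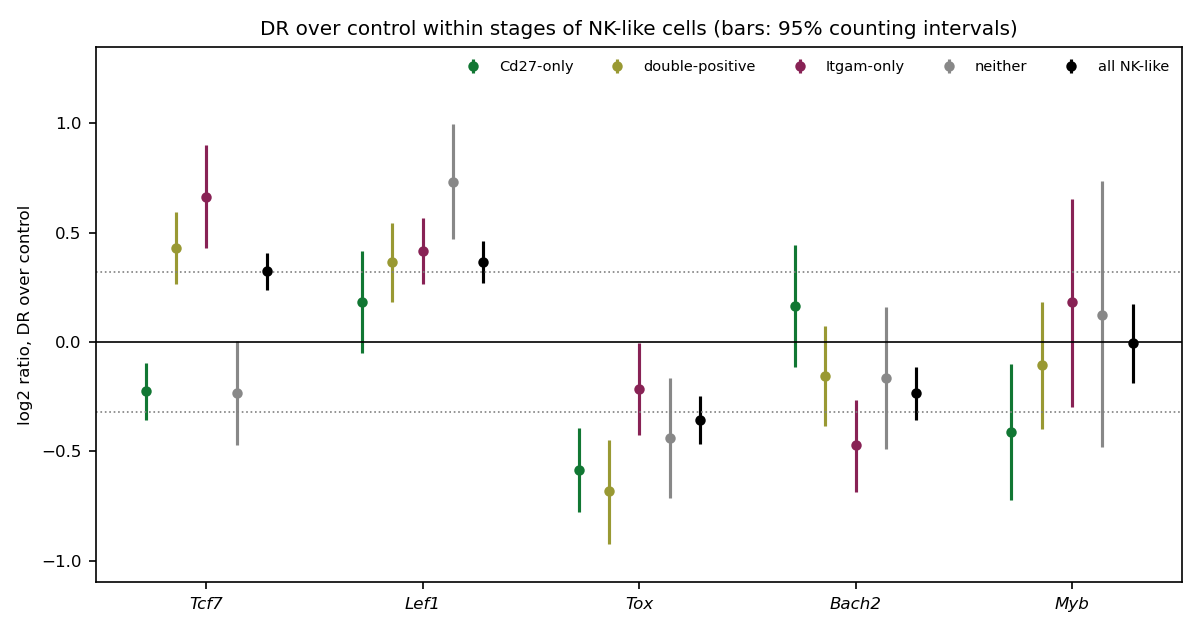
Log2 ratio of DR over control (vertical axis) of 5 genes in the 4 stages of NK-like cells and in all NK-like cells, with 95% counting intervals as bars and dotted lines at the size limits. Tcf7 lies below 0 in Cd27-only cells and at 0.67 in Itgam-only cells, and all Tox points lie below 0.

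Detection of the genes in the same cell was counted after thinning every NK-like cell to 3000 UMIs, which left 4341 control and 4252 DR cells. The number of cells with a UMI of both genes was set against the product of the 2 shares. Of 28 pairs, 21 in the control and 20 in the DR library had an expected number of at least 5 cells. By the same size limits, without an interval, 10 of these were above the product and 3 below it in the control library, and 8 and 2 in the DR library. Over pairs of a member with any other gene, 10.8% were above it in each library, 16.5% and 16.4% below, and 27.3% in either direction.

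Tcf7 was found together with Id3, Batf3, Myb, Bcl11b and Tox more often than the product of shares. Tcf7 and Id3 shared 21 control cells against 5.23 expected (4.01 times) and 19 DR cells against 7.06 (2.69 times). Tcf7 and Batf3 shared 22 cells against 6.28 (3.50 times) and 38 against 13.5 (2.81 times). Tcf7 and Myb shared 45 cells against 17.3 (2.60 times) and 41 against 19.2 (2.13 times). Tox and Batf3 shared 22 cells in each library, against 7.02 and 8.64 expected. The number of Tcf7 and Lef1 cells was close to the product, at 69 against 70.6 (0.98 times) and 107 against 117 (0.92 times).

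Lef1 and Batf3 were seldom detected together, in 1 control cell against 7.55 expected and in 7 DR cells against 16.4. Lef1 and Id3 shared 0 of 4341 control cells against 6.29 expected, which allows a share of up to 0.0691%, and 6 DR cells against 8.59. With the expected number summed over clusters, the Tcf7 and Batf3 ratios were 0.94 and 1.07 and the Tcf7 and Id3 ratios 1.19 and 1.10. The Lef1 and Batf3 ratios were 0.516 and 1.41, so their direction was not shared. The Tcf7 and Myb ratios were then 1.57 and 1.47, so this pair was detected together beyond what its cluster shares gave. Pairs of Myb, Id3, Bcl11b and Batf3 with each other had fewer than 5 expected cells. Of these, Id3 and Batf3 shared 16 control and 14 DR cells.

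Cells with a UMI of at least 2 of the 8 genes made up 23.4% (20.1 to 27.0) of control and 19.7% (17.1 to 22.4) of DR Cd27-only cells after thinning. In Itgam-only cells the shares were 6.11% (5.13 to 7.21) and 7.40% (6.13 to 8.84). They were 28.3% and 23.8% in ILC1-like cells and 86.9% in DR T-like cells. No NK-like cell had more than 4 of the genes in the control library or more than 5 in the DR library at this depth. Control NK-like cells with a Batf3 UMI had a Cd3d UMI in 38.9% of cases (21 of 54), against 3.13% of the other cells, and in the DR library the shares were 46.7% and 3.84%. An Itgam UMI was present in 7.41% and 6.67% of the cells with Batf3 and in 26.7% and 29.1% of those with Tcf7.

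**Figure D4:**
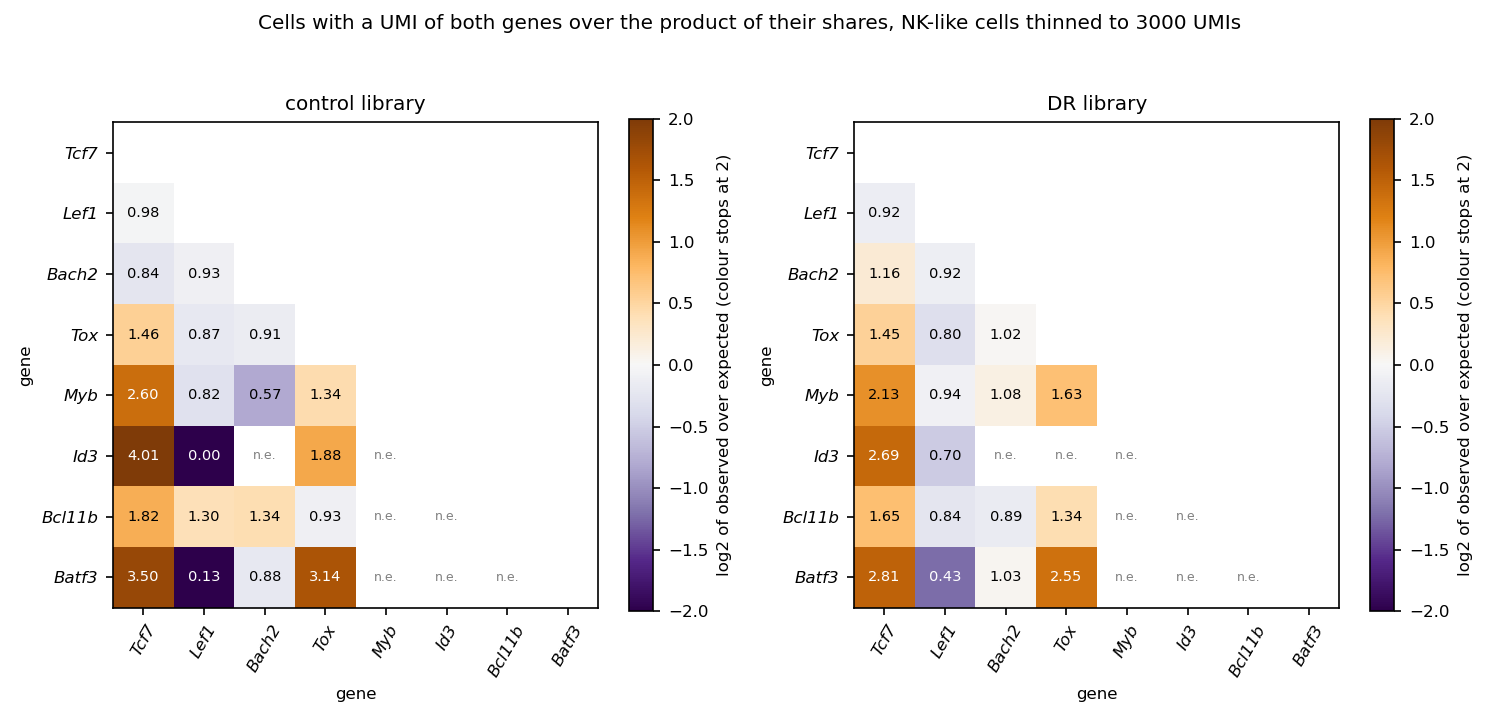
Number of NK-like cells with a UMI of both genes over the number expected from the product of their shares, for each pair in the control (left) and DR (right) library, with colour on a log2 scale that stops at 2 and the ratio as text. Pairs marked n.e. had fewer than 5 expected cells. Tcf7 with Id3 stands at 4.01 and 2.69, and Lef1 with Batf3 at 0.13 and 0.43.

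Other genes of these pathways were read from lists written with earlier results of the data known. Of 15 genes of the stem-like lymphocyte programme, 7 of 11 at 20 CPM or more were higher and 1 lower in control Cd27-only over Itgam-only cells, and 8 and 1 of 13 in the DR library. Of all genes, 10.3% were called higher and 20.2% lower in the control, and 6.68% and 17.1% in the DR library. The list includes Cd27, which defined the stages and is not among the 11 and 13 genes counted. Of the counted genes, 5 in the control and 3 in the DR library met the minimum only through Cd27-only cells. These had to differ, so the counts and the medians are a description. The median log2 ratios of the counted genes were 2.77 and 1.59, against -0.10 and -0.11 for all genes. Ltb, which encodes lymphotoxin beta, was at 389 against 14.8 CPM in the control library (log2 ratio 4.71). The adhesion gene Emb was at 198 against 14.1 CPM (3.81) and Il7r at 77.2 against 6.78 CPM (3.51). All 3 met the minimum there only through Cd27-only cells. In all NK-like cells, 7 of 13 were higher in the DR library and 1 lower, beside 3.13% higher and 7.73% lower over all genes. The median log2 ratio was 0.58, against -0.06 for all genes. S1pr1, whose receptor guides exit from lymphoid tissue, was at 21.6 CPM in the control and 48.5 CPM in the DR library, and Il7r at 26.9 and 53.2 CPM.

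Terminal maturation factors ran the other way, with 6 of 7 lower and none higher in Cd27-only cells of each library, beside 20.2% (control) and 17.1% (DR) of all genes lower. Their median log2 ratios were -0.66 and -0.57, against -0.10 and -0.11. Zeb2, needed for terminal NK maturation, was at 289 against 937 CPM in the control library (-1.69) and 222 against 695 CPM in the DR library (-1.65). Prdm1, which encodes BLIMP-1, had ratios of -1.65 and -1.28, and Irf8 of -1.35 and -1.09. In all NK-like cells 2 of 7 were lower in the DR library, Zeb2 (-0.61) and Irf8 (-0.35), beside 7.73% of all genes. The median DR over control log2 ratio of the 7 was -0.14 there. Within stages it was 0.08 in Cd27-only, -0.08 in double-positive, -0.08 in Itgam-only cells and -0.03 in cells with neither gene.

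Partners and relatives of the 8 genes were few at 20 CPM or more, and their counts are read against the same backgrounds of 10.3% higher and 20.2% lower in the control stages, 6.68% and 17.1% in the DR stages, and 3.13% and 7.73% for DR over control. Of 16 cofactors of TCF and LEF factors and Wnt targets, 7 were at 20 CPM or more, and none was higher and 1 lower in Cd27-only cells of each library. In the control library that was Bcl9l, at 45.3 against 76.3 CPM. The beta-catenin gene Ctnnb1 had log2 ratios of -0.25 and -0.28 and the kinase gene Gsk3b of -0.24 and -0.28. The co-repressor gene Tle3 was the 1 gene of this list called in all NK-like cells, lower in the DR library at 71.1 against 94.2 CPM. Of 4 E protein and inhibitor genes at that level, the E protein gene Tcf12 was higher in Cd27-only cells of both libraries (0.37 and 0.53). Id2 was at 1361 against 1545 CPM and Tcf4 at 57.7 against 61.0 CPM in the control library.

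Among 5 partners of Bach2 and AP-1 or BATF family genes, Batf was higher (0.34 and 0.50) and Bach1 lower (-0.37 and -0.43) in Cd27-only cells, while Nfe2l2 stood at -0.27 and -0.20. In all NK-like cells none of the 5 was called. Of 4 paralogs of the members at 20 CPM or more, 1 was higher and 2 lower in Cd27-only cells of the control library, and 1 and 1 in the DR library. Besides Batf and Bach1, Tox4 was lower in the control library (-0.33). Of 8 other NK lineage factors none was higher, with 2 lower in the control (Runx1 at -0.71 and Ikzf1 at -0.38) and 1 in the DR library (Runx1 at -0.77). Nfil3, needed for early NK commitment, stood at 0.31 and 0.25 and was not called. Runx1 was also lower in DR than in control NK-like cells (-0.35), and Stat5b was at -0.17.

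Genes whose levels tracked each member most closely were ranked by Pearson r of log2(CPM + 1) over the 13 stages and classes of both libraries with at least 50 cells. The points share libraries and depth, and r is a description. For Tcf7 they were Thy1 (0.975), Ubash3a (0.968) and Cd28 (0.967), and for Lef1 Satb1 (0.970), Npc2 (0.969) and Plcxd2 (0.968). For Tox they were Nlrc5 (0.985), Cd96 (0.982) and Tmsb10 (0.982), and for Bach2 BE692007 (0.944), Cpm (0.937) and Tlr1 (0.917). For Bcl11b they were Ms4a6b (0.980), Igtp (0.944) and Fam78a (0.944), and for Id3 Nop58 (0.976), Mrps28 (0.975) and Mat2a (0.966). Myb had Pdlim1 (0.827) and Mrpl30 (0.798) among the nearest, and Batf3 had Csf2 (0.905), Sft2d2 (0.863) and Prss2 (0.861). Over the 8 NK-like stage values alone, the nearest gene was another one for all 8 members. Those of Myb were then Cmtm7 (0.989), Pglyrp1 (0.985) and Nfkb1 (0.969), and Pglyrp2 (0.989) was nearest to Tcf7, Slc25a40 (0.991) to Lef1, Gpr55 (0.993) to Id3 and Tnf (0.992) to Batf3.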

How the data were processed

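Per the labels' protocols, cells were captured with the Chromium Next GEM Single Cell 3' v3.1 kit. The deposited matrices hold UMI counts, whole numbers without normalization. Cell Ranger 5.0.1 stands in them, per the file headers. In the submitters' processing notes the version is 2.1.1 and the build mm10.

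Barcodes were kept if they had 500 genes or more and a mitochondrial UMI share of 10% or less. The control library had 5702 barcodes and 44526828 UMIs, the DR library 6287 and 42134212, and 13 barcodes occurred in both. Doublets were scored per library by simulation (2 per cell) and the highest scores called at 0.8% per 1000 cells, which removed 258 and 313 cells and left 5229 and 5807. Cells of both libraries were clustered together with scanpy 1.11.5 (2000 variable genes without the 8 members, 30 components in double precision rounded to 4 decimals, 15 neighbours, resolution 0.6). Clusters were named where at least 3 markers and 50% of a list reached 20 CPM and 25% of the highest cluster, limits set after the files were opened. Clusters with 206 control and 182 DR cells kept no name, and 1 and 19 cells were myeloid-like. The unnamed clusters included a cycling one (112 and 72 cells) and one of low depth (38 and 29 cells). Both best matched the NK markers, and neither is counted among NK-like cells. Unnamed control cells together held Batf3 at 35.7, Id3 at 29.5, Myb at 29.1, Tcf7 at 91.9 and Tox at 62.4 CPM, above control NK-like cells. Lef1 (35.2 CPM), Bach2 (17.6 CPM) and Bcl11b (5.72 CPM) were below them. UMIs were summed per class and library. Counts, thinning and intervals used numpy 2.4.6 and scipy 1.17.1, and the calling script was tested on simulated data.

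The 8 genes and all gene lists were chosen with earlier results of these data known. Genes outside the 8 were named by rule: the 3 most alike per member, and up to 3 per list by stage and 2 by library. One gene that this rule would name is not reported here. Alternatives covered scaling, minimum level, thinning, doublets, clustering and its seed, stage limits and cells left out.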

Additional observations from a re-analysis of the deposited data

Results flagged for a closer look

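Several genes had DR over control ratios of opposite sign in different cells, each with a counting interval that left out 0 on the log2 scale. The differences between these ratios were not tested, since each rests on 1 library per group. For Tcf7 the log2 ratio was 0.432 in double-positive and 0.665 in Itgam-only NK-like cells, but -0.226 in Cd27-only cells and -0.24 in ILC1-like cells. With stages called after thinning to 3000 UMIs, the 3 NK-like stages kept their sign.

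For Id3 the log2 ratio was 1.181 in double-positive cells (14 control and 23 DR UMIs) and -0.358 in Cd27-only cells. For Batf3 it was 1.802 in double-positive cells (19 and 48 UMIs), 0.904 in cells with neither gene and -1.725 in ILC1-like cells (62 and 22 UMIs). With stages called after thinning, the double-positive values turned to -1.85 for Id3 and -0.27 for Batf3.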

How the results depend on the processing

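No paired analysis was possible because each group had 1 library. The counts are of the 8 genes called in either direction, and each change was to 1 setting. Shares of all genes called are given for the main setting only. The counts under other settings therefore do not set the 8 genes against all genes. In all NK-like cells the DR over control count of 3 became 0 at a size limit of 1.5 and 1 with clusters weighted equally, where Tcf7 changed sign (-0.00248 against 0.32). For Cd27-only over Itgam-only cells the count of 4 in each library became 7 with a minimum of 5 CPM or none. It was 7 in the control library with stages from at least 2 UMIs. In the DR library it was 2 with stages called after thinning and 1 without the Batf3-led cluster. Leaving out cells with a cell cycle or T cell receptor UMI left 22 control and 97 DR Cd27-only cells, a count of 1 in each library, and a Tox ratio in the DR library of -0.0920 against 0.87, a change of sign. For ILC1-like over NK-like cells the control count of 5 became 8 with a minimum of 5 CPM or none, 3 after thinning and 3 at a limit of 1.5. The DR count of 4 became 7 with a minimum of 5 CPM or none. Within ILC1-like cells the DR over control count of 1 became 2 at 5 CPM, and 0 after thinning, with median-of-ratios scaling or without ribosomal and mitochondrial genes. Pairs detected together or apart numbered 13 in the control library, 8 after thinning to 2000 UMIs and 7 with expected numbers summed over clusters. In the DR library they numbered 10, 6 after thinning to 2000 UMIs, 20 without thinning and 4 over clusters. The cause of these changes was not tested, except that lower minimum levels admit more genes. Of the ratios of single genes under all alternatives, 590 stayed within the counting interval of the value reported, 110 left it and 2 changed sign after a call. Chosen after seeing the data were another seed of the clustering, leaving out the Batf3-led or Gzmc-led cluster or cells with a UMI of Mki67, Top2a or Cd3e, equal cluster weights, expected numbers over clusters, and every alternative to the DR over control ratios within stages and ILC1-like cells. Genes under about 10 CPM rest on few UMIs at this depth, and the spread between mice is unknown.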
